A study of Mus musculus with 76 samples.

Results

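The comparison set embryos whose fathers had been exposed to the higher of the labelled doses of α-cypermethrin against embryos whose fathers had received the lower one. The embryos were C57BL/6J mice collected on embryonic day 16, and RNA of their dorsal forebrain, which holds the developing cerebral cortex, was sequenced. The libraries were chosen by their sample titles and comprised 22 of the 76 in the series. Paternal_10Cyp (n = 10, 6 females and 4 males, 4 in batch 1 and 6 in batch 2) carried the dose label 10. Paternal_0.3Cyp (n = 12, 6 females and 6 males, 6 in each batch) carried the dose label 0.3. The labels give no unit for either dose. In both groups only the fathers were exposed and the mothers received vehicle, for 28 days before mating. Dosing ran for 7 days and then followed 3 rounds of a 2-day pause and 5 dosed days. Ctrl (n = 12), in which both parents received vehicle, was not part of the dose comparison; levels and tests against it are given for some genes. Litters are not labelled, so each p-value measures the spread between these libraries, some of which may come from littermates.

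Pyrethroids such as α-cypermethrin act on nerve cells by keeping voltage-gated sodium channels open for longer. In this design the embryo itself was not treated, and only the father's side had met the compound. At this stage of development the dorsal forebrain contains radial glia, the stem cells of the cortex, their dividing intermediate progenitors, young excitatory neurons of the deep and upper layers, migrating interneurons, vessels, microglia and adjoining meninges.

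No gene passed the test between the doses. Of 13776 genes tested, 0 (0%) had a Benjamini-Hochberg adjusted p under 0.05 by edgeR's quasi-likelihood test with batch and sex as terms, and the smallest adjusted p was 1.00. At an unadjusted p under 0.05 there were 583 genes (4.23%), 238 higher (1.73%) and 345 lower (2.5%) at dose 10. The 95% interval of the log2 difference, taken gene by gene, lay wholly within 0.5 of 0 for 11599 genes (84.2%) and within 1 of 0 for 13456 (97.7%). Within batch 1 and within batch 2 the share within 0.5 of 0 was 59.8% and 71.1%. These intervals are unadjusted and take each library as independent, so they may be too narrow where libraries come from littermates. The median absolute log2 difference was 0.062, and 20 genes reached 1. The median over all genes was -0.019, with 41.1% of genes on the positive side, and 43.5% of genes had the same sign in both batches. Other tools did not all give 0. DESeq2 called 15 genes (0.287% of the 5229 to which it gave an adjusted p). On all 76 libraries edgeR called 9 (0.0628%), and with 2 surrogate variables it called 81 (0.588%). By limma 0 were called (0%), with 1626 of 13776 genes at an unadjusted p under 0.05.

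The libraries of Paternal_0.3Cyp varied more among themselves than those of Paternal_10Cyp. The median within-group SD of log2 CPM, library-scaled counts on TMM totals, was 0.161 in Paternal_10Cyp and 0.256 in Paternal_0.3Cyp, and it was larger in Paternal_0.3Cyp for 83.2% of genes. Library totals, in units of 1000000 counts, were 17.8 to 41.4 in Paternal_10Cyp, with 4 libraries above 20, and 17.97 to 19.4 in Paternal_0.3Cyp. The labels were set beside marker genes. The cortical transcription factor Emx1 had 49.7 to 87.0 CPM in Paternal_10Cyp and 24.4 to 115.7 in Paternal_0.3Cyp, with no threshold set for it. Its lowest level was in replicate 9 of Paternal_0.3Cyp, where the median of the other libraries was 61.3 CPM. Over 4 Y-linked genes 0 libraries went against their sex label. In 3 libraries of Paternal_0.3Cyp more than 500 genes lay 2-fold or more from the median of the 22, against at most 229 in any Paternal_10Cyp library. Replicate 4 (731 genes) had the highest sums of the S phase and mitosis lists. Replicate 8 (1195 genes) had 29700 CPM of cytosolic ribosomal proteins where the median of the 22 was 16000, and few reads of long genes, with the ubiquitin protease gene Usp24 at 0 CPM. Replicate 9 (814 genes) had 1377 CPM of diencephalon and midbrain genes and 1287 CPM of meningeal genes. Without these 3 libraries edgeR again called 0 genes, but 1705 of 13738 had an unadjusted p under 0.05. With all 22 libraries 583 of 13776 did so. Leaving out replicate 8 alone gave 0 calls and 1745 of 13747 genes at that p, so the lower number rested largely on that library.

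**Figure D1:**
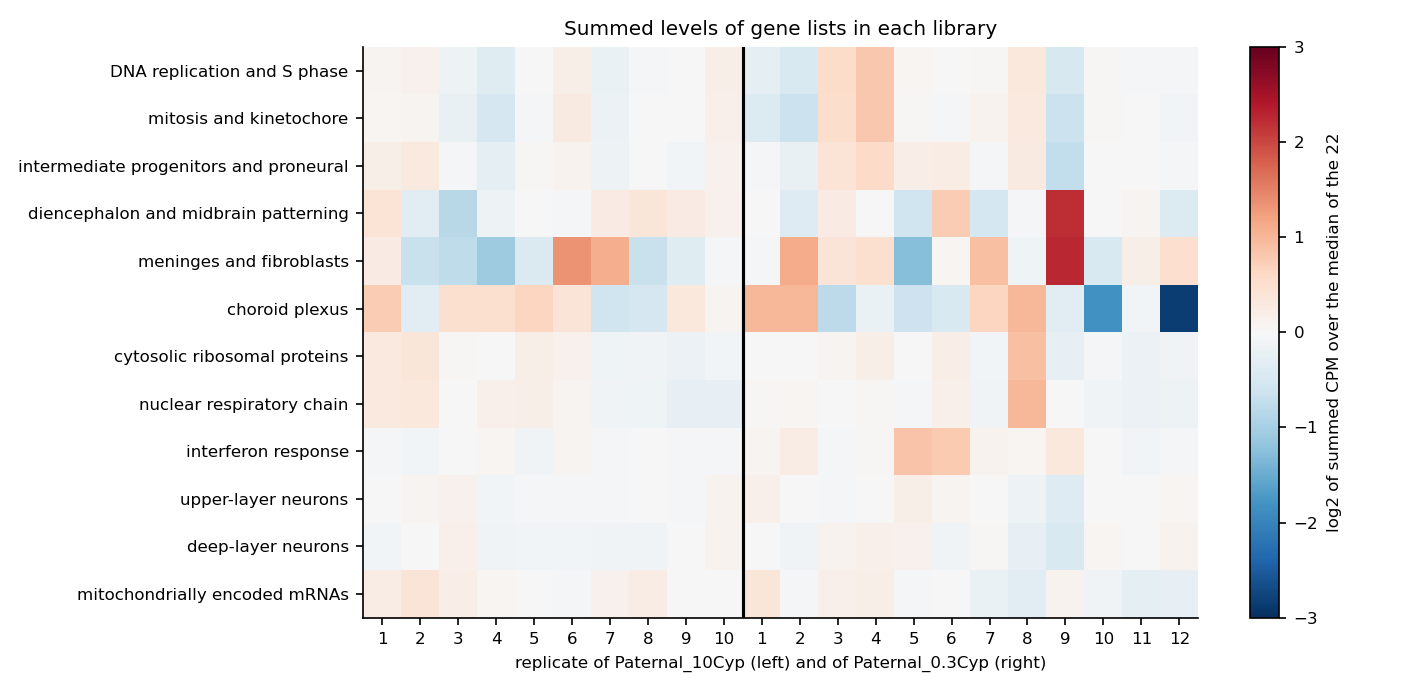
Summed normalised CPM of 12 gene lists in each library, as the log2 ratio to the median of the 22 libraries (colour); columns are the 10 replicates of Paternal_10Cyp, left of the line, and the 12 of Paternal_0.3Cyp, right of it. Replicates 4, 8 and 9 of Paternal_0.3Cyp stand out in different lists, and replicates 10 and 12 have the lowest choroid plexus sums.

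The genes of lowest p that were higher at dose 10 differed by small amounts. Exoc5 (ENSMUSG00000061244; chromosome 14, 49004090 to 49066653 on mm10) encodes a subunit of the exocyst, which tethers secretory vesicles to the plasma membrane. It ran from 108.5 to 118.4 CPM (median 110.5) in Paternal_10Cyp and from 89.1 to 106 CPM (median 100.8) in Paternal_0.3Cyp. The groups did not overlap, and it was the only gene of the 13776 (0.00726%) with every Paternal_10Cyp library above every Paternal_0.3Cyp library, while 0 genes (0%) showed the opposite order. Its log2 difference was 0.15 ± 0.04 (SE; unadjusted p = 0.000521, adjusted p = 1.00 by edgeR). Dcun1d1, which promotes attachment of the ubiquitin-like protein Nedd8 to cullins, ran from 55.8 to 67.3 CPM (median 61.8) in Paternal_10Cyp and from 49.4 to 56.8 (median 54.3) in Paternal_0.3Cyp. All 10 libraries at dose 10 were above the median of dose 0.3, and all 12 at dose 0.3 were below the median of dose 10 (0.18 ± 0.04, unadjusted p = 0.000317 by edgeR). Tmed7, a cargo receptor between the endoplasmic reticulum and the Golgi, had 138.1 to 153.0 CPM (median 146.1) in Paternal_10Cyp and 123.4 to 141.4 (median 130.8) in Paternal_0.3Cyp, with overlap limited to the edges of the groups.

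The same description held for Vps35, a subunit of the retromer, which returns cargo from endosomes. It had 185.1 to 204.2 CPM (median 194.7) in Paternal_10Cyp and 164.0 to 185.8 (median 176.9) in Paternal_0.3Cyp, a log2 difference of 0.12 ± 0.03. Ssr3, a part of the translocon-associated complex of the endoplasmic reticulum, differed by 0.13 ± 0.04, and Kpna3, a nuclear import adaptor, by 0.13 ± 0.04. The others chosen by the same rule were Ptp4a1, a phosphatase whose ID here (ENSMUSG00000117310) overlaps a second gene of the same symbol, so that its reads may be split (0.15 ± 0.04), Armc1, a mitochondrial protein (0.15 ± 0.04), Nxt2, an mRNA export factor (0.21 ± 0.06), and Bnip3l, a receptor for the removal of mitochondria (0.15 ± 0.04). Ei24, a protein of the endoplasmic reticulum (0.13 ± 0.04), and Cfl2, an actin-severing cofilin (0.15 ± 0.04), completed them. Without replicates 4, 8 and 9 of Paternal_0.3Cyp the 12 differences were 0.114 to 0.175. DESeq2 called 9 of these 12 genes, where it called 0.287% of the 5229 genes to which it gave an adjusted p. The 7 genes called both by DESeq2 and by edgeR on all 76 libraries were Dcun1d1, Exoc5, Tmed7, Vps35, Ssr3, Kpna3 and Ei24. The 12 were chosen by p from these same libraries, so further calls of them are not separate support. Against Ctrl, 11 of the 12 were called in Paternal_10Cyp and 1, Kpna3, in Paternal_0.3Cyp, where 21.5% and 27.6% of all genes were called; these comparisons share the Ctrl libraries, and the choice of the 12 used the Paternal_10Cyp levels.

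Base composition moved with this pattern. The median GC content of the longest transcript was 40.0% for the 12 genes higher at dose 10, 57.4% for the 12 lower ones described next and 49.9% for all genes. Over all genes, the median log2 difference was 0.027 in the fifth of lowest GC content and -0.064 in the fifth of highest GC content. The deeper libraries, replicates 7 to 10 of Paternal_10Cyp, lay 0.044 to 0.077 above the median of the 22 in the fifth of lowest GC content, where the other 18 libraries lay between -0.082 and 0.028. The part of base composition and depth in these differences was not tested. Counts thinned to the smallest total gave 0 calls by edgeR, as the full counts did, with 0 of the 24 genes turned in sign. Thinning evens the totals but leaves base composition as it was, and the 24 genes were chosen by p and sign. This setting therefore cannot decide the question.

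**Figure D2:**
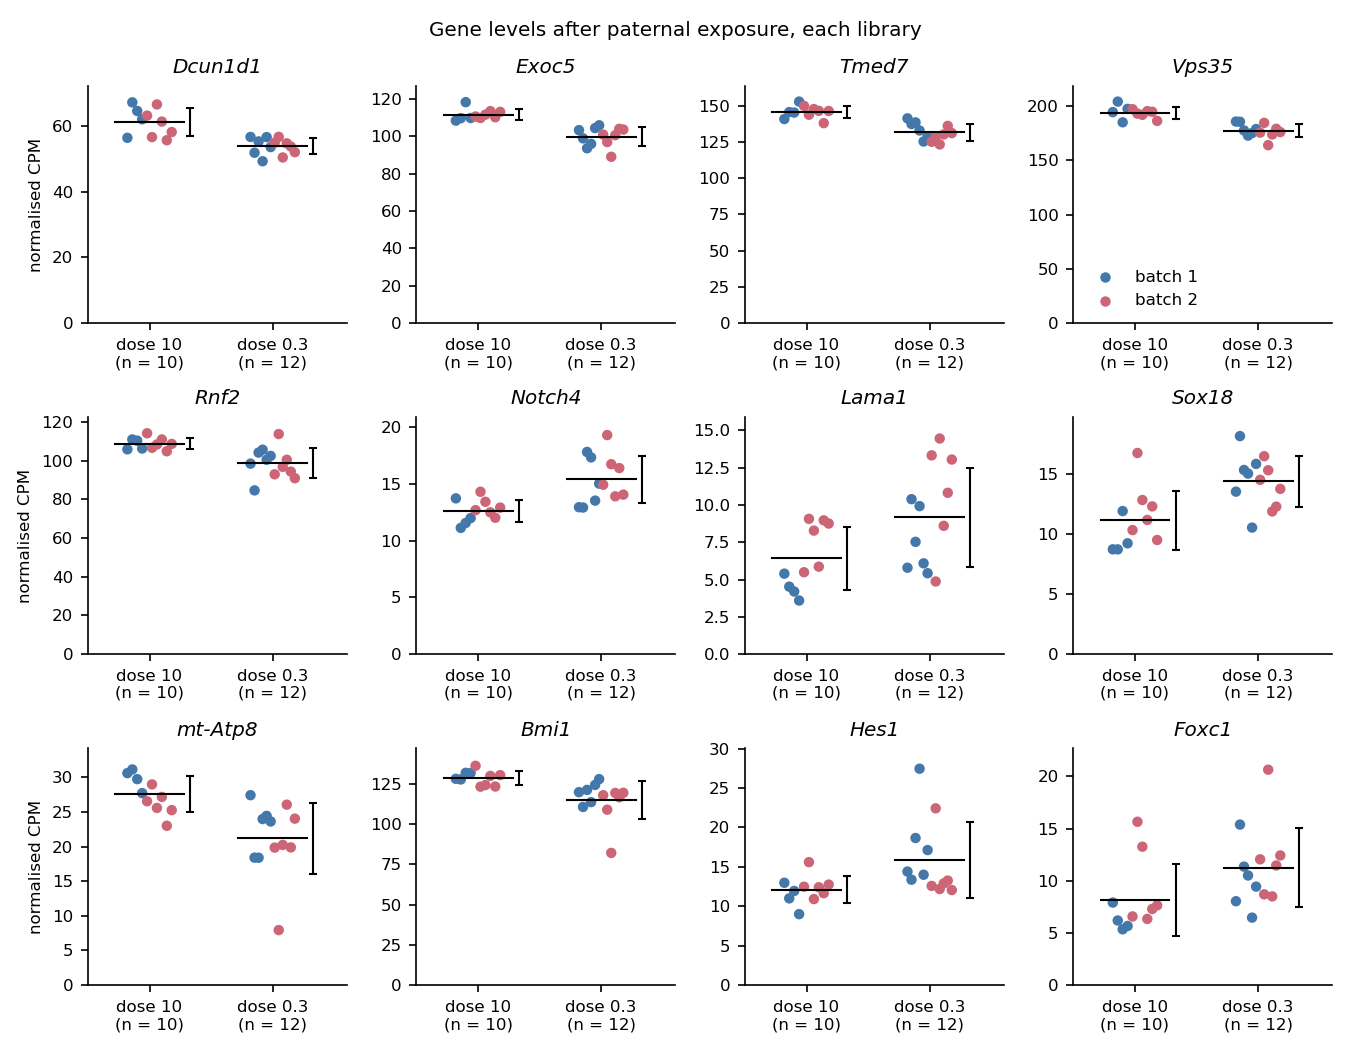
Normalised CPM of 12 genes in each library (points, coloured by batch) of Paternal_10Cyp, left in each panel, and Paternal_0.3Cyp, right; lines are means and bars are SD (n = 10 and 12). Exoc5 is the only panel without overlap between the groups, and the lowest mt-Atp8 and Bmi1 levels belong to replicates 8 and 9 of Paternal_0.3Cyp.

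The genes of lowest p that were lower at dose 10 included several of blood vessels. Notch4, a Notch receptor of endothelial cells, had 11.1 to 14.3 CPM (median 12.6) in Paternal_10Cyp and 12.9 to 19.3 (median 14.97) in Paternal_0.3Cyp. All 10 libraries at dose 10 were below the median of dose 0.3 (-0.30 ± 0.08, unadjusted p = 0.000661 by edgeR). Sox18, an endothelial transcription factor (-0.40 ± 0.12), and Nos3, endothelial nitric oxide synthase (-0.36 ± 0.11), lay on the same side, each with 9 of 10 libraries below the median of dose 0.3. In the endothelial list 16 of 23 tested genes were negative, where 58.9% of all genes were so, and 3 of them had an unadjusted p under 0.05, where 2.5% of all genes were lower at that p, with a median of -0.088 beside -0.019 for all genes. The 2 members of lowest p were Sox17, another endothelial transcription factor, with 3.09 to 5.49 CPM (median 4.53) in Paternal_10Cyp and 3.72 to 8.38 (median 5.76) in Paternal_0.3Cyp, and Kdr, a VEGF receptor (-0.28 ± 0.11). None of these passed the adjusted test. Notch4, Sox18 and Nos3 were chosen by p and are not members of the list, of which 7 genes were positive. The list's summed level was 830.1 to 999 CPM (median 901.3) in Paternal_10Cyp and 756.5 to 1137 CPM (median 910.8) in Paternal_0.3Cyp. These sums had nearly equal medians, with the range of Paternal_10Cyp inside that of Paternal_0.3Cyp. In bulk tissue, fewer cells of a type and less RNA per cell cannot be told apart.

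In the list of DNA methylation and Polycomb genes, members lay on both sides. Rnf2, the ubiquitin ligase subunit of Polycomb repressive complex 1, had 104.9 to 114.2 CPM (median 108.5) in Paternal_10Cyp and 84.7 to 113.8 (median 99.5) in Paternal_0.3Cyp, a difference of 0.13 ± 0.05. Bmi1, its partner, differed by 0.16 ± 0.05 and the chromobox subunit Cbx2 by -0.28. Over the 26 tested members of the list the median was -0.071, and 2 members were higher and 2 lower at an unadjusted p under 0.05, where 1.73% of all genes were higher and 2.5% lower. Imprinted genes, which are read from 1 parental copy, were negative for 20 of 22, where 58.9% of all genes were so, with a median of -0.060 and 0 genes at an unadjusted p under 0.05. That median was -0.020 without replicate 9 of Paternal_0.3Cyp, close to the -0.019 of all genes, and -0.11 without replicate 4 of Paternal_10Cyp.

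The remaining lower genes of the rule were of mixed function. Zbtb48, a telomere-binding zinc finger protein, had the lowest p (-0.33 ± 0.08, unadjusted p = 0.000299 by edgeR), with all 10 libraries at dose 10 below the median of dose 0.3. Its range was 7.79 to 11.5 CPM (median 9.59) in Paternal_10Cyp and 9.33 to 14.5 (median 11.9) in Paternal_0.3Cyp, so that the groups overlapped. Lama1, a laminin chain of basement membranes, had the largest difference of the 12 (-0.62 ± 0.17), and Cfp, which stabilises complement convertases, differed by -0.54 ± 0.14. Lime1, an adaptor in lymphocytes (-0.51 ± 0.15), Plscr3 (-0.22 ± 0.06), Sbno2 (-0.21 ± 0.06), Abcg1, a sterol exporter (-0.20 ± 0.06), and Zfp513, a zinc finger protein (-0.17 ± 0.05), were also among the 12. Without replicates 4, 8 and 9 of Paternal_0.3Cyp the 12 differences were -0.614 to -0.151. Against Ctrl, edgeR called 4 of these 12 in Paternal_10Cyp and 2 in Paternal_0.3Cyp. Of all genes 21.5% and 27.6% were called in these comparisons, which share the Ctrl libraries.

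**Figure D3:**
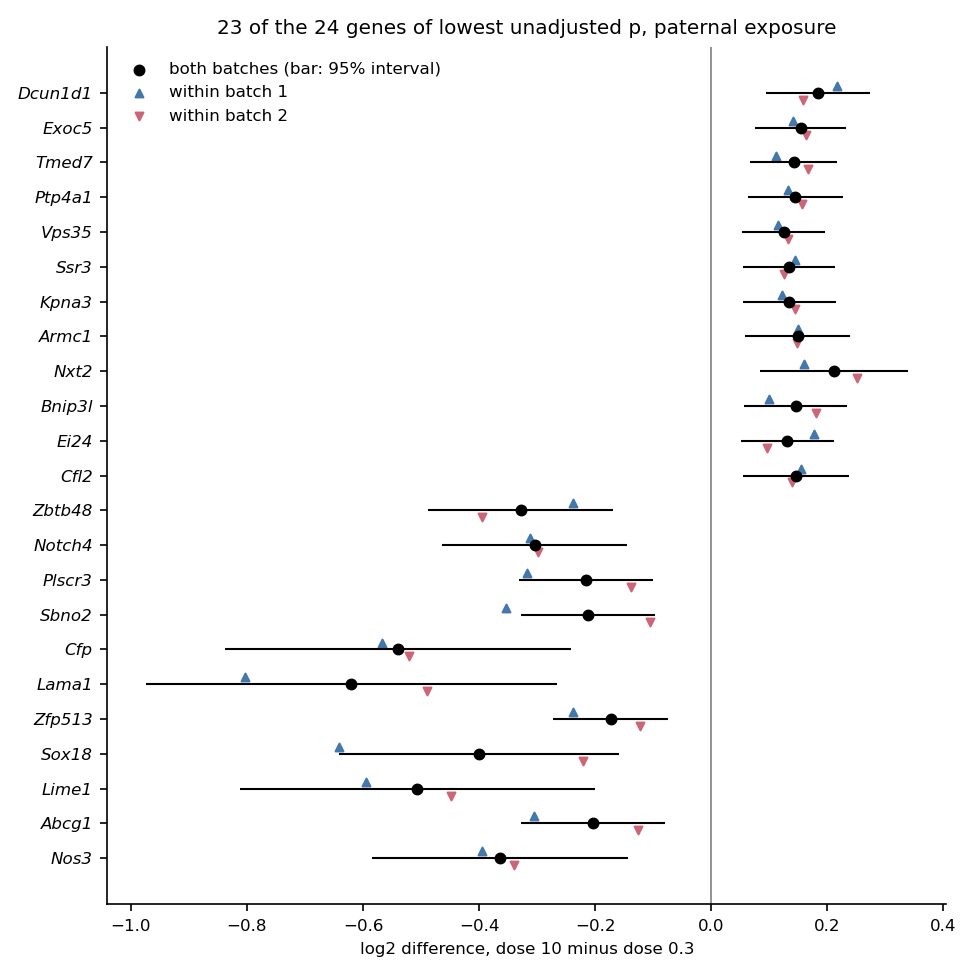
Log2 difference, Paternal_10Cyp minus Paternal_0.3Cyp, of 23 of the 24 genes of lowest unadjusted p, 12 positive and 11 negative (black points with 95% intervals), and the same within batch 1 and batch 2 (triangles). Each value has the same sign in both batches because the rule for choosing genes required it; Lama1 and Lime1 have the widest intervals.

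Transcripts of the mitochondrial genome were the list that lay most uniformly on the positive side. All 13 tested were positive, 6 at an unadjusted p under 0.05 where 1.73% of all genes were so, with a median of 0.18. mt-Nd1, a subunit of respiratory complex I, had 1240 to 1779 CPM (median 1411) in Paternal_10Cyp and 1031 to 1576 (median 1267) in Paternal_0.3Cyp, overlapping over most of their range. mt-Atp8, a subunit of ATP synthase, had the largest difference (0.38 ± 0.12), with 23.0 to 31.2 CPM (median 27.5) in Paternal_10Cyp and 7.94 to 27.4 (median 21.9) in Paternal_0.3Cyp; it overlaps mt-Atp6, so reads may have been split between them. These genes are cut from long shared precursor transcripts and are not independent of each other. The median was 0.077 within batch 1 and 0.25 within batch 2, and 0.22 without replicates 4, 8 and 9 of Paternal_0.3Cyp. Of 33 nuclear genes of the respiratory chain 11 were positive, and their median was -0.026, but 0.11 without replicate 8 of Paternal_0.3Cyp, so its sign rested on 1 library.

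Meningeal and fibroblast genes lay on the negative side throughout the list but varied widely from library to library. All 21 tested were negative, 5 at an unadjusted p under 0.05 where 2.5% of all genes were so, with a median of -0.65. The summed level ran from 128.1 to 679.6 CPM (median 202.8) in Paternal_10Cyp and from 110.8 to 1287 CPM (median 324.8) in Paternal_0.3Cyp, so the groups overlapped, with the whole range of Paternal_10Cyp inside that of Paternal_0.3Cyp. Col1a1, the fibrillar collagen, had 2.58 to 53.7 CPM (median 10.9) in Paternal_10Cyp and 4.20 to 265.3 (median 24.4) in Paternal_0.3Cyp. Foxc1, a transcription factor of the meninges, had 5.34 to 15.7 CPM (median 6.93) in Paternal_10Cyp and 6.46 to 20.6 (median 10.9) in Paternal_0.3Cyp (-0.51 ± 0.20). The list's median was -1.14 within batch 1 and -0.48 within batch 2, and leaving out replicate 9 of Paternal_0.3Cyp gave -0.49. Ctrl libraries had a median sum of 296.8 CPM. The meninges lie on the surface of the dissected tissue, and the share of them in each sample was not measured otherwise.

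**Figure D4:**
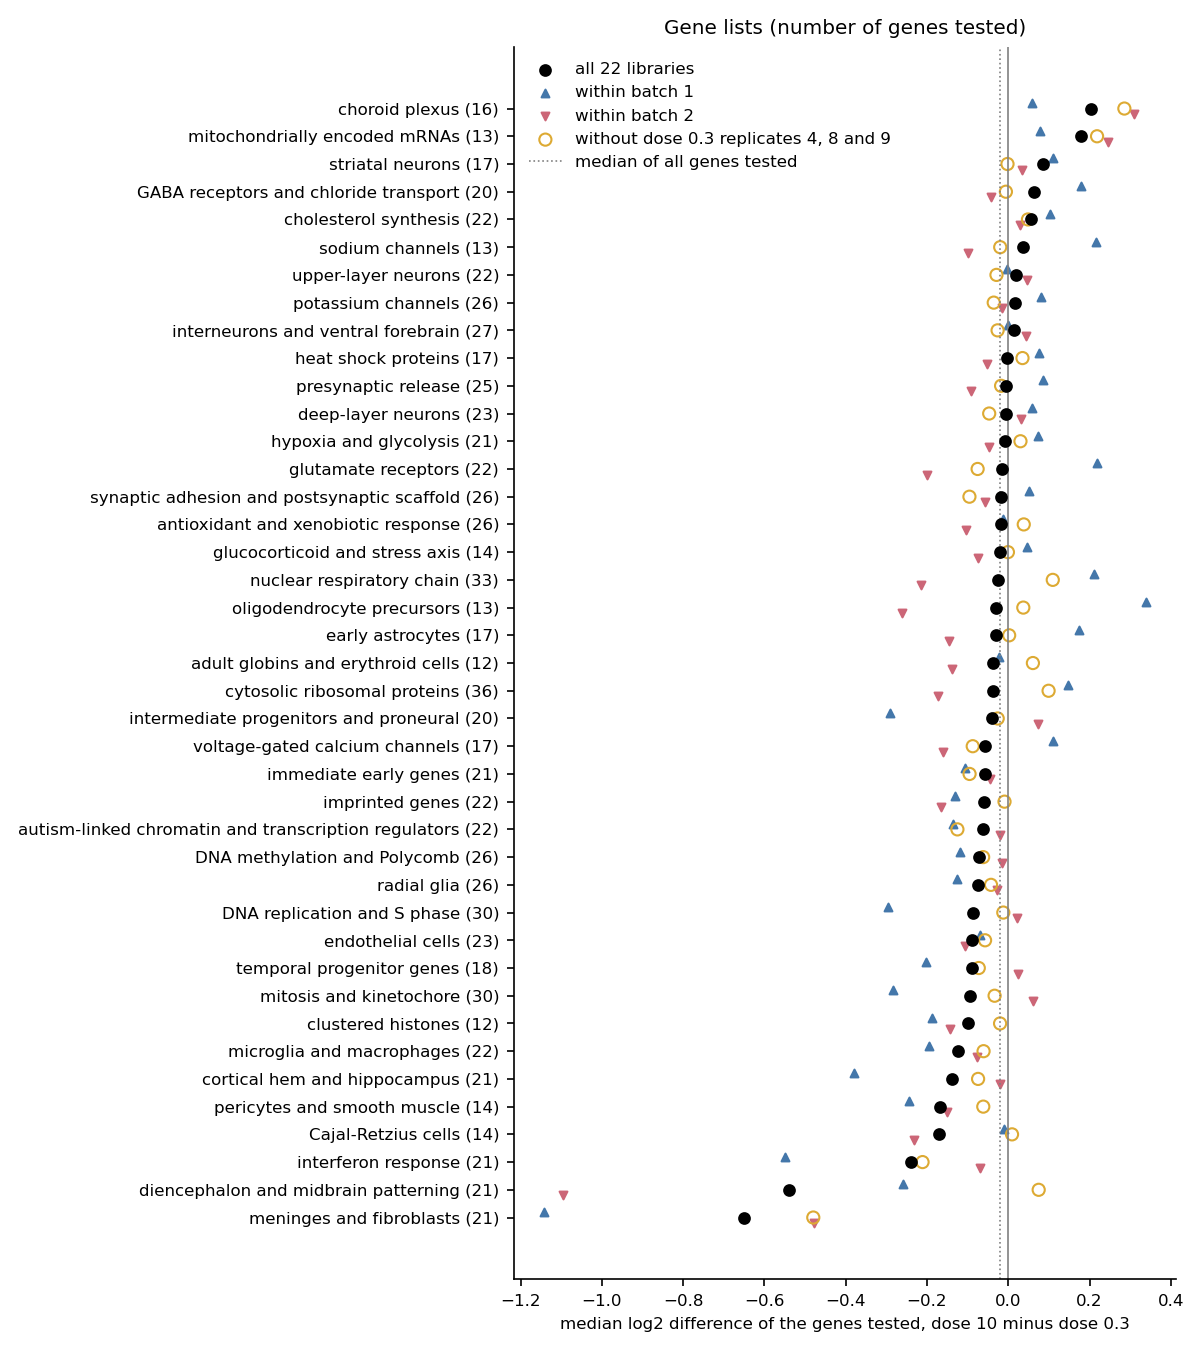
Median log2 difference, Paternal_10Cyp minus Paternal_0.3Cyp, of the tested genes of 41 lists (number of genes in parentheses), over all 22 libraries, within each batch and without 3 libraries of Paternal_0.3Cyp that stood apart; the dotted line is the median of all genes. In 32 lists the median over all libraries lies within 0.1 of 0, and in 20 lists the batches have opposite signs.

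In the diencephalon and midbrain list 1 library set the median. Of 21 tested genes 20 were negative, with a median of -0.54, and without replicate 9 of Paternal_0.3Cyp, the library high in these genes, the median was 0.02. Tfap2b, a transcription factor of the dorsal midline and neural crest, had 0 to 9.16 CPM (median 0.512) in Paternal_10Cyp and 0 to 86.5 CPM (median 0.725) in Paternal_0.3Cyp. The highest Tfap2b level at dose 10 was in replicate 7. Tcf7l2, a thalamic transcription factor, had 240.1 CPM in replicate 9 of Paternal_0.3Cyp, while the medians were 11.6 in Paternal_10Cyp and 11.9 in Paternal_0.3Cyp. The same library had the lowest levels of the cortical neuron genes Neurod2 (211.9 CPM, group median 497.6) and Neurod6 (222.6 CPM, group median 507.1).

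Hbb-y, an embryonic beta-like globin of red cells from the yolk sac, had the largest difference of any named gene, again from few libraries. It had 0.0545 to 0.947 CPM (median 0.497) in Paternal_10Cyp and 0.0514 to 69.3 CPM (median 0.478) in Paternal_0.3Cyp. The medians were alike, and replicates 3 and 4 of Paternal_0.3Cyp held the high values; the log2 difference was -2.67 ± 1.11, with -5.04 within batch 1, which holds both libraries, and -0.57 within batch 2. The adult beta globin Hbb-bt had 191.8 to 299.3 CPM (median 220.1) in Paternal_10Cyp and 171.3 to 447.9 CPM (median 204.0) in Paternal_0.3Cyp (-0.071). In replicates 3 and 4 of Paternal_0.3Cyp it had 306.5 and 330.8 CPM, and its highest value was in replicate 8. The 250 bases before the RefSeq start of each gene (GRCm38.p6, minus strand, chr7:103853208-103853457 for Hbb-y and chr7:103813924-103814173 for Hbb-bt) are shown because these neighbours in 1 gene cluster lay above their group medians to unlike degrees in replicates 3 and 4. Capitals mark, on either strand, CACCC (a core bound by Krüppel-like factors), CCAAT (bound by NF-Y), GATAA (bound by GATA factors) and ATAAA (a core of the TATA box).
Hbb-y: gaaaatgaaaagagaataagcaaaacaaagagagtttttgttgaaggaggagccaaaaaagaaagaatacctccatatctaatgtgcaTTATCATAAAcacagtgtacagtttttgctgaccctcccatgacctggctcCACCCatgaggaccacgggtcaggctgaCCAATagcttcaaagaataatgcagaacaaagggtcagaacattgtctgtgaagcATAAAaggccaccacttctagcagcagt
Hbb-bt: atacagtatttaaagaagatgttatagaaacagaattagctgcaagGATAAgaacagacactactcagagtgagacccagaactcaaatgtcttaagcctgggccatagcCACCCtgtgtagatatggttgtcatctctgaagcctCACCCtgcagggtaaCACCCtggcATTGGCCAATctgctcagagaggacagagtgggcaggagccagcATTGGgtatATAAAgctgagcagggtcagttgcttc
The Hbb-y window held 1 CACCC, 1 CCAAT, 1 GATAA and 2 ATAAA, and the Hbb-bt window 3, 3, 1 and 1. Such short motifs are common: of 32851 promoter windows of this length 52% held CACCC, 33.8% CCAAT, 22.6% GATAA and 37.3% ATAAA, and a match is a description only.

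Genes of dividing progenitors gave different pictures in the batches. In the S phase list (DNA replication enzymes and licensing factors) 27 of 30 genes were negative, where 58.9% of all genes were so. The median was -0.088, but -0.30 within batch 1 and 0.021 within batch 2. The mitosis and kinetochore list behaved alike, with 27 of 30 negative, a median of -0.094, -0.28 within batch 1 and 0.062 within batch 2. Summed S phase levels ran from 1040 to 1509 CPM (median 1331) in Paternal_10Cyp and from 960.2 to 2341 CPM (median 1333) in Paternal_0.3Cyp, with the highest value in replicate 4. Without replicates 3 and 4 of Paternal_0.3Cyp, the libraries of these 2 groups high in embryonic globin, the medians were 0.066 and 0.076. Neurog1, which commits progenitors to a neuronal fate, had 0.809 to 4.24 CPM (median 1.64) in Paternal_10Cyp and 0.257 to 13.3 CPM (median 2.40) in Paternal_0.3Cyp. Its highest level was in replicate 4 too (-0.92 ± 0.45, unadjusted p = 0.0508 by edgeR). Hes1, the Notch target that keeps radial glia undifferentiated, had 8.995 to 15.6 CPM (median 12.2) in Paternal_10Cyp and 12.1 to 27.5 (median 13.7) in Paternal_0.3Cyp (-0.39 ± 0.14). The highest Hes1 levels of Paternal_0.3Cyp were in replicates 4, 8 and 3 (27.46, 22.43 and 18.66 CPM). In the radial glia list 16 of 26 genes were negative, close to the 58.9% of all genes, with a median of -0.073. In that list 1 gene, Hes1, had an unadjusted p under 0.05, where 2.5% of all genes were lower at that p.

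Genes of cortical neurons differed little between the doses. The upper-layer list had a median of 0.019 over 22 genes and the deep-layer list -0.0052 over 23, and 0 of these genes reached an unadjusted p under 0.05. For 19 of the 22 and 21 of the 23, the 95% interval lay within 0.5 of 0. The interneuron list had a median of 0.015, the striatal list 0.085, the presynaptic list -0.0050 and the list of synaptic adhesion and scaffold genes -0.018. Snap25, a SNARE protein of synaptic vesicle release, had 90.1 to 130.1 CPM (median 113.8) in Paternal_10Cyp and 66.8 to 118.3 (median 99.0) in Paternal_0.3Cyp (0.21 ± 0.08), with the groups overlapping.

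Sodium channel genes, which encode the direct target of pyrethroids and its partners, differed little between the doses. Of 18 listed genes 13 were tested, 8 were positive, 0 had an unadjusted p under 0.05, and for 11 the 95% interval lay within 0.5 of 0. The median was 0.035. The list median was 0.22 within batch 1 and -0.098 within batch 2. The members of lowest p were Fgf14, which binds the channels' tails, with 16.7 to 23.5 CPM (median 22.6) in Paternal_10Cyp and 13.7 to 23.9 (median 19.01) in Paternal_0.3Cyp, and Scn2b, an auxiliary subunit (-0.19 ± 0.12). Among 17 voltage-gated calcium channel genes the median was -0.057, and Cacna1g, a T-type channel, had 24.7 to 46.7 CPM (median 34.7) in Paternal_10Cyp and 27.4 to 80.6 (median 42.6) in Paternal_0.3Cyp (-0.32 ± 0.13). The median was 0.016 for potassium channels and -0.015 for glutamate receptors, the last with 0.22 within batch 1 and -0.20 within batch 2. For GABA receptors and chloride transport it was 0.064, but -0.026 without replicate 4 of Paternal_10Cyp. With 1 library left out the sodium channel median was -0.027 to 0.11.

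Stress and defence genes were mostly near the median of all genes, apart from the interferon list. Heat shock genes had a median of -0.0021, genes of the glucocorticoid axis -0.021, and antioxidant and xenobiotic genes -0.019. Immediate early genes had a median of -0.058 over 21 members, with Junb, a component of the AP-1 factor, the 1 member at an unadjusted p under 0.05 (-0.26 ± 0.11). Of 21 interferon-response genes 19 were negative, with a median of -0.24, which was -0.55 within batch 1 and -0.069 within batch 2. Their summed level was 125.9 to 143.5 CPM (median 133.1) in Paternal_10Cyp and 128.0 to 247.9 CPM (median 143.3) in Paternal_0.3Cyp. The highest sums were in replicate 5 and then, at 233.2 CPM, replicate 6 of Paternal_0.3Cyp, both in batch 1. Choroid plexus genes were positive for 14 of 16 (median 0.20, 0 genes at an unadjusted p under 0.05), with sums of 458.1 to 1172 CPM (median 885.7) in Paternal_10Cyp and 96.5 to 1389 CPM (median 583.0) in Paternal_0.3Cyp. Their median log2 difference was 0.054 without replicate 12 and 0.36 without replicate 7 of Paternal_0.3Cyp.

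For 9 genes singled out by earlier results of these data, the 2 paternal doses were compared directly, with Ctrl given for the level. Egr4, an activity-dependent transcription factor, averaged 1.77 CPM in Ctrl, 0.836 in Paternal_0.3Cyp and 0.917 in Paternal_10Cyp. Against Ctrl it fell at dose 0.3 (log2 fold change -1.07, adjusted p = 0.00528 by edgeR on all 76 libraries) and at dose 10 (-0.92, adjusted p = 0.0201 by the same fit of edgeR). Between the doses the difference was 0.19 ± 0.31, with a 95% interval of -0.45 to 0.83. Ptk2b, a calcium-responsive kinase, also fell against Ctrl at dose 0.3 (-0.81, adjusted p = 0.00484 by edgeR) and at dose 10 (-0.69, adjusted p = 0.0220 by edgeR). It differed by 0.11 ± 0.24 between the doses (interval -0.39 to 0.61). The 2 comparisons share the Ctrl libraries, and 27.6% of genes at dose 0.3 and 21.5% at dose 10 were called. The 9 genes were singled out with these same data, so p-values against Ctrl in this paragraph are not separate support for a fall. The astrocyte genes Gfap and Aqp4 differed between the doses by 0.20 ± 0.34 and 0.14 ± 0.37. Hmga2, a chromatin protein of young progenitors, had 0.960 to 5.28 CPM (median 2.45) in Paternal_10Cyp and 1.44 to 14.3 CPM (median 2.78) in Paternal_0.3Cyp, a difference of -0.55 ± 0.37 (interval -1.31 to 0.21). Rnf213, an interferon-inducible ubiquitin ligase, fell against Ctrl at dose 10 (-1.07, adjusted p = 0.00440 by edgeR), where at dose 0.3 the value was -0.32 (adjusted p = 0.305 by edgeR). The direct difference between the doses was -0.67 ± 0.33 (unadjusted p = 0.0545 by edgeR), with 1.55 to 5.72 CPM (median 2.45) in Paternal_10Cyp and 1.39 to 13.9 CPM (median 4.24) in Paternal_0.3Cyp.

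**Figure D5:**
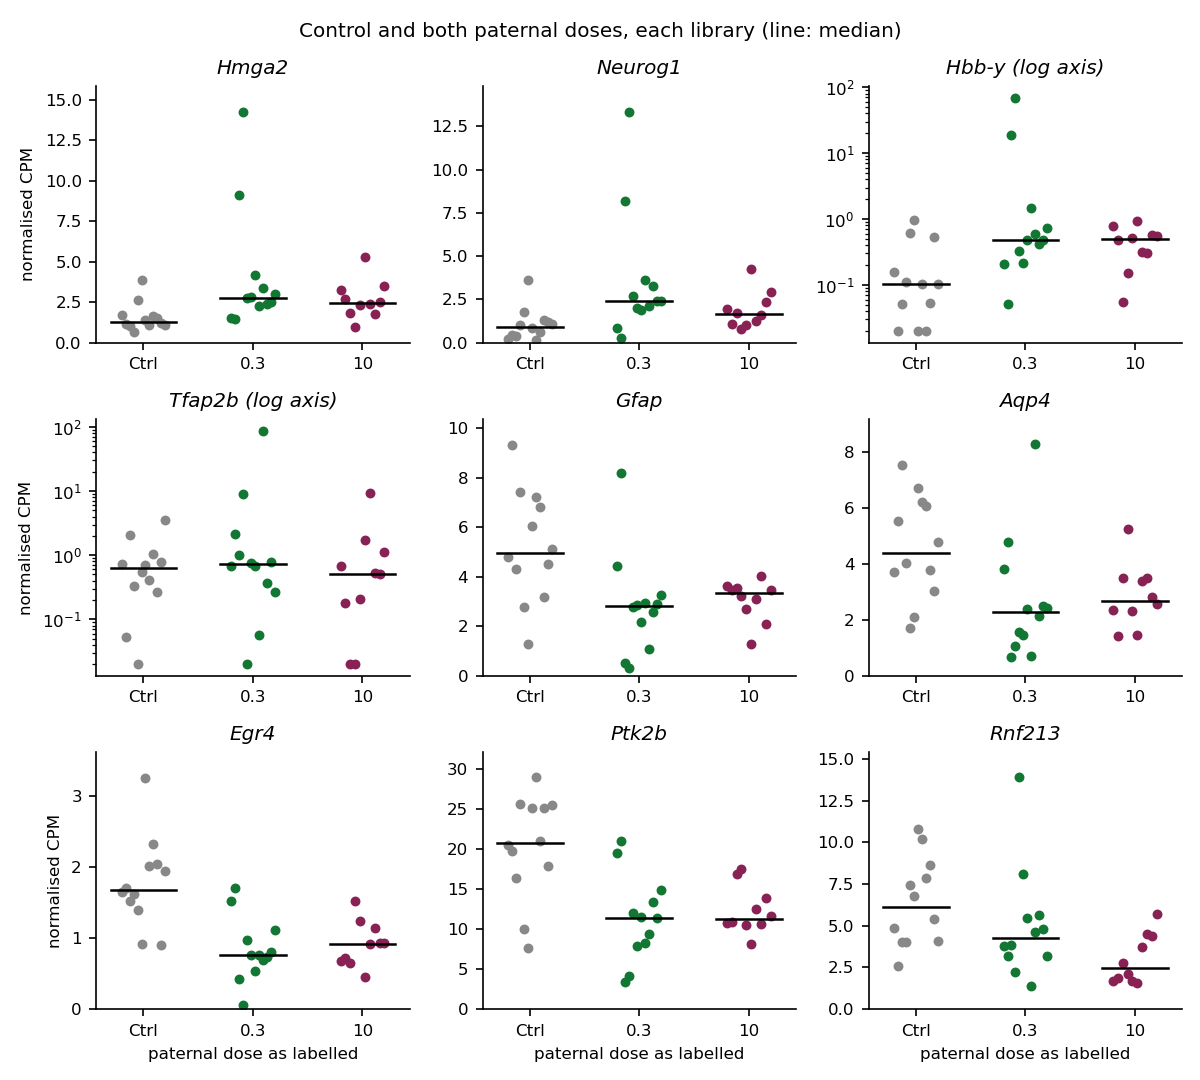
Normalised CPM of 9 genes in each library of Ctrl (n = 12), Paternal_0.3Cyp (n = 12) and Paternal_10Cyp (n = 10), with lines at the medians; Hbb-y and Tfap2b are on a log axis, where 3 and 4 values under 0.02 are drawn at 0.02. The 2 paternal doses overlap in every panel, and single libraries of Paternal_0.3Cyp hold the highest Hmga2, Neurog1, Hbb-y and Tfap2b levels.

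The dose difference was then compared between batches and between sexes. In the test of batch by dose 0 genes (0%) passed, with 831 (6.03%) at an unadjusted p under 0.05 and a smallest adjusted p of 0.717 by edgeR. Within batch 1 and within batch 2, 0 genes (0%) passed, with 973 (7.06%) and 459 (3.33%) at an unadjusted p under 0.05. Among the genes of lowest p for the batch test was Ccn1, a matrix protein, with -0.59 within batch 1 and 0.12 within batch 2. In the test of sex by dose 0 genes (0%) passed, with 788 (5.72%) at an unadjusted p under 0.05 and a smallest adjusted p of 0.769 by edgeR. Within females and within males 0 genes passed, with 618 (4.49%) and 708 (5.14%) at an unadjusted p under 0.05. Among the genes of lowest p for the sex test was Calb2, the calcium buffer calretinin, with a dose difference of -0.67 in males and 0.62 in females. In Paternal_0.3Cyp, replicates 3 and 4 were females of batch 1, and replicates 8 and 9 were males of batch 2. The libraries that stood apart were thus divided by batch and sex at once.

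The paternal dose difference was also set against the dose differences of the other exposures, which share no library with it. After maternal exposure (Maternal_10Cyp, n = 8, against Maternal_0.3Cyp, n = 12) edgeR called 0 of 14128 genes (0%) between the doses, with 934 (6.61%) at an unadjusted p under 0.05. After exposure of both parents (Both_10Cyp, n = 10, against Both_0.3Cyp, n = 12) it called 0 of 14078 (0%), with 359 (2.55%). The paternal difference did not depart from the maternal difference in any gene that passed the test by edgeR (0%, 646 genes or 4.57% at an unadjusted p under 0.05), nor, by edgeR, from that of both parents (0%, 614 genes or 4.36%). For the last test, of the 14078 genes that entered, DESeq2 called 4 and limma 51. Without replicate 8 of Paternal_0.3Cyp edgeR called 7, where the number tested is not given here. For the test against the maternal difference DESeq2 called 1 of the 14128 genes that entered. Of the positive genes above, Exoc5 had a log2 difference of 0.15 after paternal exposure, 0.035 after maternal exposure and -0.039 after exposure of both parents. The paternal minus both-parents value for Exoc5 was 0.20 ± 0.05 (adjusted p = 0.419 by edgeR). Myc, a growth-promoting transcription factor, was -0.22 after paternal exposure and 0.18 after exposure of both parents, a difference of -0.39 ± 0.08 (adjusted p = 0.127 by edgeR), the smallest adjusted p in that test together with Mcc. Zbtb48 was -0.33 after paternal and 0.15 after maternal exposure, a difference of -0.47 ± 0.12 (adjusted p = 0.809 by edgeR). Exoc5 and Zbtb48 were chosen by their paternal values, so values nearer 0 after other exposures may follow from that choice alone. Most other genes of lowest p are not set against the other exposures here.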

How the data were processed

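RNA-seq libraries of 76 embryos were deposited as 1 table of expected counts per gene, which the authors made, per the submitters' processing notes, with Salmon 1.10.1 after trimming by Trim Galore 0.5.0, with mm10 as the build. The deposited expected counts are whole numbers for 14823 genes. The annotation release and the way estimates were summed to genes are not given in the sources used here. Each gene has at least 10 counts in 3 libraries, so genes below that are not analysed. Gene IDs were looked up in GENCODE M21 (GRCm38) for their symbols and positions, and 14810 matched. Promoter sequences are RefSeq's, on GRCm38.p6.

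Groups, batch and sex came from the labels. Totals of the 22 libraries were 17.8 to 41.4, in units of 1000000 counts. The 10 Paternal_10Cyp and 12 Paternal_0.3Cyp libraries were fitted in R 4.3.3 by edgeR 4.0.16, after a low-count filter (filterByExpr by group) and TMM scaling, as a robust quasi-likelihood model with group, batch and sex, a 2-sided test and Benjamini-Hochberg adjustment, with calls under 0.05. Standard errors are the log2 difference divided by the root of F, and 95% intervals use the fit's degrees of freedom. Within-batch and within-sex values come from fits with a mean per group and batch, or group and sex. Comparisons with Ctrl come from 1 fit of all 76 libraries. Replicate numbers do not pair libraries: over 10 shared numbers the correlations of deviations were -0.568 to 0.235. Within Paternal_10Cyp and within Paternal_0.3Cyp, no 2 libraries were duplicates (smallest chi-square per gene 4.06).

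The rule named, among genes with a symbol that is no clone name, a mean of at least 1 CPM and the same sign in both batches, the called genes and the 12 of lowest p on each side. It also named up to 2 genes of lowest p per list, 5 per difference test (there without the condition on sign) and 9 genes known from earlier results. Col1a1, Emx1, Usp24, Tcf7l2, Neurod2, Neurod6, Hbb-bt, Cbx2, Wdr41 and Ift80 were named after their values were seen. Some genes that the rule names are not reported here. The comparison, the 42 gene lists (914 genes) and this rule were chosen with earlier results of these data known. Lists are described by counts and medians with no test.

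Other settings were DESeq2 1.42.0, limma 3.58.1 voom with quality weights, DESeq2 size factors, no filter or 1 CPM in 10 libraries, all 76 libraries, no batch or sex term, a non-robust fit, a replicate block, 2 surrogate variables (sva 3.50.0), each batch alone, thinned counts and the ratio of embryonic to adult globin counts (pseudocount 0.5) as a covariate. Libraries were left out singly, or where they were more than 3 MAD above the median of all 76 in embryonic globin or diencephalon genes. Added after seeing the data was leaving out libraries with over 500 genes 2-fold from the median.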

Additional observations from a re-analysis of the deposited data

Results flagged for a closer look

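The 173 sets of 10 Paternal_10Cyp values were the named genes, the list sums, the library totals and the numbers of genes 2-fold from the median. In 10 of 173 sets 1 library lay apart from the other 9 by more than Dixon's 95% limit. Chance alone would do so in about 1 in 20 sets, a nominal share, since the sets come from the same libraries and are not independent. Paternal_0.3Cyp, with 12 libraries, was not examined in this way.

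Replicate 3 held the highest Exoc5 level (118.4 CPM, next 113.6). The same library held the highest Homer1, a postsynaptic scaffold gene (93.63 CPM, next 84.27), and the highest Inhba, an activin subunit gene (18.69 CPM, next 12.08). Replicate 6 held the highest Sox18 (16.79 CPM, next 12.86) and Ccne1, cyclin E1 (10.61 CPM, next 8.847), and the lowest Cyp51, a sterol demethylase (169.6 CPM, next 193.2). Its meningeal sum was also the highest of Paternal_10Cyp, at 679.6 CPM. Replicate 7 held the highest Tfap2b (9.156 CPM, next 1.694). Replicate 5 held the lowest mt-Atp6, a subunit of ATP synthase (675.9 CPM, next 1416). Replicate 4 held the highest sums of oligodendrocyte precursor genes (531.3 CPM, next 408.7) and of early astrocyte genes (1620 CPM, next 1485). The causes were not tested.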

How the results depend on the processing

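The count of 0 genes called between the paternal doses held with another normalization, either filter, limma, no batch or sex term, each batch alone, thinned counts, the globin covariate and each library left out (0 to 0). It was 15 with DESeq2 (14 higher and 1 lower), 9 with all 76 libraries (9 higher) and 81 with 2 surrogate variables (54 higher and 27 lower), with 7 genes shared by DESeq2 and all 76 libraries. The number at an unadjusted p under 0.05 was 583 of 13776 genes, and 1745 of 13747 without replicate 8 of Paternal_0.3Cyp. The paternal minus maternal count, 0 of 14128 genes by the main edgeR fit, was 1 with DESeq2. That of paternal minus both parents was 0 of 14078 genes by the main edgeR fit. The paternal minus both-parents count was 4 with DESeq2 and 51 with limma. It was 1 without the libraries high in embryonic globins, which were replicates 3 and 4 of Paternal_0.3Cyp and 7 and 8 of Both_10Cyp. Without the libraries with over 500 genes 2-fold from the median it was 1. With 1 library left out it was 0 to 7 (7 without replicate 8 and 1 without replicate 7 of Paternal_0.3Cyp). The numbers tested with libraries left out are not given here for this count. The causes were not tested. A replicate block gave 0 calls (563 at an unadjusted p under 0.05), but the numbers do not pair libraries: 2 of 10 correlations of deviations passed 0.1. Of 2312 values of 129 named genes under 18 settings, 50 in 24 genes turned in sign, and 17 of 2833 did so with 1 library left out. Among the 24 genes of lowest p none turned, but these were chosen by p and by the same sign in both batches. Their steady signs thus follow largely from that choice. Counting error limits genes near 1 CPM most.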

Other observations

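Wdr41, which encodes a partner of the C9orf72 protein, was close to absent in some libraries and present in the others. It was under 1 CPM in 17 of the 76 libraries (0 to 0.577 CPM) and between 7.54 and 28.3 CPM in the other 59. The 17 included 3 of 10 Paternal_10Cyp libraries, 4 of 12 Paternal_0.3Cyp libraries and 1 of 12 Ctrl libraries, and every group had at least 1. Ift80, an intraflagellar transport gene, was under 1 CPM in 6 of the 76 libraries, 0 of them in Paternal_10Cyp and 2 in Paternal_0.3Cyp. What sets these levels was not tested.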
